A study of Danio rerio with 10 samples.

Results

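The genes of iron uptake, iron storage, the iron hormone hepcidin and heme breakdown were followed in sorted pituitary cells of adult zebrafish (Danio rerio). They were chosen by name, with a pattern for hepcidin, Steap metalloreductases, transferrin and its receptors, ferritin heavy chains, iron regulatory proteins, hemojuvelin, ceruloplasmin, heme oxygenases and biliverdin reductases. The pattern matched 24 of 14781 gene names, and 9 of these were finTRIM genes, whose symbols only resemble those of ferritin, so 15 genes remained. They are hamp, hfe2, tfa, tfr1a, tfr1b, tfr2, steap4, cp, fth1a, fth1b, aco1, hmox1a, hmox2a, blvra and blvrb.

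The RNA came from male TL fish, 12 months old, that had been injected with 10 µL of 4.6 mM β-Ala-Lys-Nε-AMCA, a dipeptide carrying a blue dye, 3 hours before the pituitaries were dissected. Cells inside the dye gate (AMCA-positive, labelled pituicytes, the astroglia of the neurohypophysis) were compared with cells outside it (AMCA-negative, labelled non-pituicytes). All cells in both groups came from injected fish. There were 5 libraries for each dye class, from 5 pools of 7 pituitaries. Plate 1 held 2 of each class and plate 2 held 3.

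Iron travels in blood bound to transferrin, enters cells through transferrin receptors, is reduced by Steap enzymes and is stored inside ferritin. The hormone hepcidin blocks the iron exporter ferroportin, and so holds iron inside cells. Heme oxygenase opens the heme ring, which sets free iron and biliverdin, and biliverdin reductases turn biliverdin into bilirubin. Red cells take up iron in large amounts to make hemoglobin, while macrophages recover it from worn red cells.

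Totals ran from 4250948 to 6068781 counts per library, and 11308 to 11817 genes had a count in AMCA-positive libraries, against 7079 to 9056 in AMCA-negative ones. Of 18 astroglial and pituicyte markers tested, 15 were higher in AMCA-positive libraries and none was lower, with her6, a Hes-type repressor gene of glia, at 241 CPM in AMCA-positive libraries against 0.138 CPM in AMCA-negative ones. This list was chosen with earlier results of these data known, so the count is no independent test of what the cells are. Other cells were present on both sides of the gate. Counts of 23 leukocyte and macrophage markers summed to 2.49 to 4.47% of each AMCA-positive library and 0.156 to 0.662% of each AMCA-negative one. Counts of 16 red cell markers summed to 0.0489 to 0.145% in AMCA-positive and 23.0 to 41.5% in AMCA-negative libraries. In such bulk samples fewer cells of a type and less RNA per cell cannot be told apart.

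Of the 15 genes, 12 had enough counts to be tested. In AMCA-positive cells hamp, steap4 and hmox1a were higher, and tfr1a, fth1a, blvra and blvrb were lower. That is 7 of 12 with an adjusted p under 0.05 by edgeR's quasi-likelihood test, where 22.7% of all 10468 genes tested passed, 16.2% higher and 6.56% lower. The members were chosen with earlier results of these data known, so this count is a description and no independent test. These 7 were also the ones whose groups did not overlap in TMM-scaled CPM, as was the case for 24.4% of all genes tested, 18.7% above and 5.72% below. For fth1a and blvra this did not hold when counts were taken as a part of all counts. With neighbouring wells of a plate taken as a block, 4 were higher and 3 lower, since tfr1b gained a call and blvra lost it. The median log2 fold change of the 12 was -0.17, against 0.69 for all genes tested, and with DESeq2 size factors it was 0.01 against 0.85. The authors' deposited table gives an adjusted p for 12 of the 15, and 3 of these are higher and 4 lower at 0.05, where 22.3% of 11270 genes are higher and 8.31% lower.

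**Figure D1:**
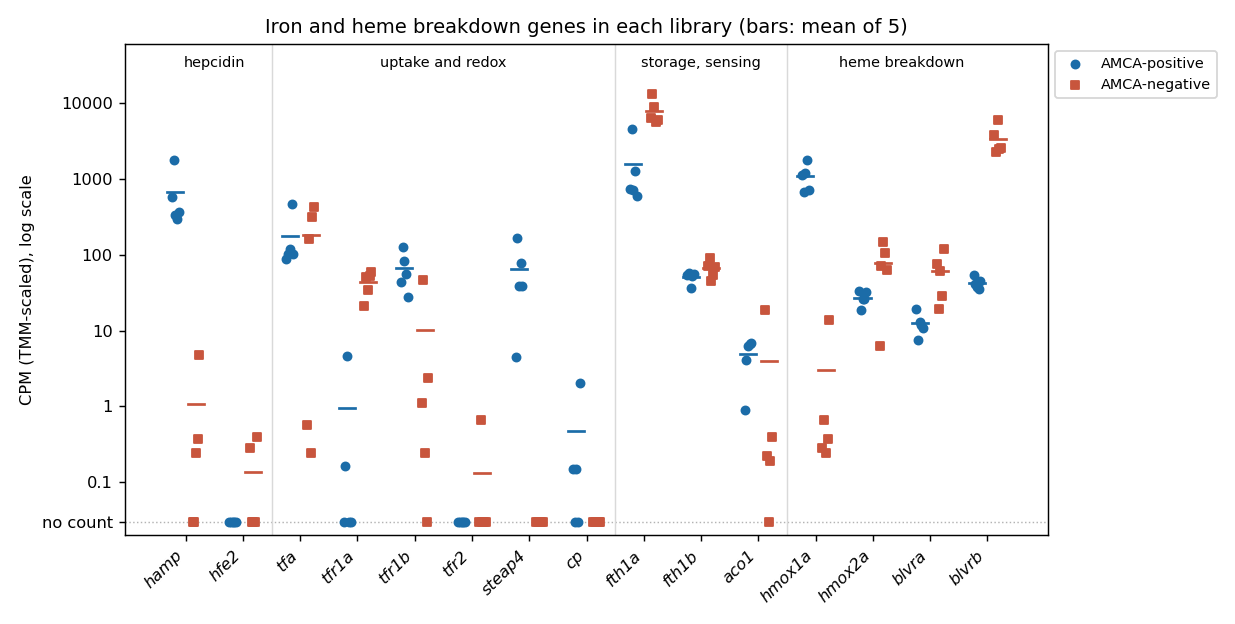
Level of each of the 15 genes in each library, in CPM (counts scaled to the TMM library size) on a log axis, with AMCA-positive libraries as blue circles left of AMCA-negative libraries as red squares and the mean of 5 as a bar; libraries without a count sit on the dotted line. Levels of different genes are not corrected for length. On this scale the groups do not overlap for hamp, steap4, hmox1a, tfr1a, fth1a, blvra and blvrb. Those of blvra nearly touch, at 19.2 CPM in AMCA-positive replicate 1 and 19.3 CPM in AMCA-negative replicate 2. For tfa the range is 88.4 to 461 CPM in AMCA-positive and 0.245 to 430 CPM in AMCA-negative libraries.

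The gene hamp encodes hepcidin, a peptide hormone best known from liver and also made by macrophages in mammals. Its level in AMCA-positive replicates 1 to 5 was 577, 1761, 337, 297 and 362 CPM. In AMCA-negative replicates 1 to 5 it was 0, 0, 0.245, 0.376 and 4.79 CPM. Every AMCA-positive library was thus far above every AMCA-negative one, with replicate 2 the highest of its group and AMCA-negative replicate 5 the only one of its group above 1 CPM. The difference in log2 terms was 9.06, with an SE of 1.37 (n = 5 per group) and an adjusted p of 0.00115 by edgeR. Within plates the log2 fold change of hamp was 15.52 on plate 1 (edgeR adjusted p = 0.0563), where AMCA-negative libraries had no count, and 7.49 on plate 2 (edgeR adjusted p = 0.0147). Without AMCA-negative replicate 5 it was 11.55, without AMCA-negative replicate 1 it was 8.40 and without AMCA-negative replicate 2 it was 8.36, all past the test. The plate 1 value is a fit against no count, so its size is not a measured fold. The interaction of plate and group for hamp (log2 -8.15, SE 2.29) did not pass (edgeR adjusted p = 0.405), nor did that of any other member with a value. Unadjusted, the edgeR p was 0.00642 for hamp and 0.0276 for aco1, the only 2 members under 0.05. Of all genes 0 passed for this term, so not passing does not show that the plates were alike.

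Hemojuvelin, a co-receptor for the BMP signals that switch hepcidin on, is listed as hfe2. It had no count in AMCA-positive libraries and 3 counts in AMCA-negative ones, too few for the test. A count of 0 over the AMCA-positive libraries allows a level of up to 0.0928 CPM (3 counts over the group, counting error only).

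Liver markers were mostly near 0 in these libraries. Of 19 hepatocyte markers found in the table, 4 had no count in any library, among them fabp10a, the liver fatty acid-binding protein gene. Their counts summed to 0.0893 to 0.303% in AMCA-positive and 0.000511 to 0.0428% in AMCA-negative libraries. Most of the AMCA-positive sum came from rbp4, the retinol-binding protein gene, at 1364 ± 690 CPM in AMCA-positive libraries against 0.884 ± 0.478 CPM in AMCA-negative libraries (SD, n = 5), and from tfa itself.

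Among genes known to carry signals to hepcidin, 10 of 25 tested were higher in AMCA-positive libraries and 1 was lower, with a median log2 fold change of 1.97 against 0.69 for all genes. Over all genes tested 16.2% were higher and 6.56% lower. This list too was chosen with earlier results of these data known. The transcription factor gene cebpa, whose product drives hepcidin transcription in mouse liver, was at 426 ± 283 CPM in AMCA-positive libraries. It had 2 counts in all AMCA-negative libraries, which puts it 4715-fold higher (1305 to 38934 as the 95% interval from counting). The BMP-responsive factor gene atoh8 was at 26.3 ± 10.1 CPM with 2 AMCA-negative counts, or 295-fold higher (81.5 to 2443 by the same interval). For smad9, a receptor-regulated Smad gene, the level was 68.0 ± 16.4 CPM in AMCA-positive libraries against 6.70 ± 1.82 CPM in AMCA-negative ones (SD, n = 5). The cytokine feedback gene socs3b was at 638 ± 185 CPM in AMCA-positive libraries against 17.99 ± 16.2 CPM in AMCA-negative libraries. Lower was the kinase gene jak2a, at 10.7 ± 4.18 CPM in AMCA-positive libraries, against 423 ± 82.7 CPM in AMCA-negative ones.

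The remaining members of that list past the test, all higher, were bmp2b, bmpr2a, smad1, id1, il6 and il1b. Here il6, which encodes the cytokine that raises hepcidin in inflammation, was at 7.26 ± 10.0 CPM, between 2.12 and 25.2 CPM, with no AMCA-negative count. The gene of the chief BMP ligand for hepcidin in mice, bmp6, was at 6.74 CPM in AMCA-positive libraries, against 0.831 CPM in AMCA-negative ones, and did not pass (log2 fold change 4.21, SE 1.71, adjusted p = 0.108 by edgeR). These lists were tested gene by gene only. Between the groups leukocyte markers mostly went the same way. Of 23 tested, 17 were higher, among them il1b, which is in both lists, and 1 was lower. The part of these markers in the result was not tested. The complement genes c1qb and c1qa, markers of macrophages and microglia, were far apart between the groups. The level of c1qb was 2277 ± 819 CPM in AMCA-positive libraries (SD, n = 5) and 0.812 ± 0.523 CPM in AMCA-negative ones, and c1qa had 338 ± 125 CPM in AMCA-positive libraries and 5 counts in all AMCA-negative ones. The perforin gene mpeg1.1, another macrophage marker, was at 219 ± 89.6 CPM in AMCA-positive libraries, against 67.2 ± 85.4 CPM in AMCA-negative ones, with overlap.

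Immediate early genes, which cells switch on within minutes of stimulation or stress, also differed between the groups, mostly in the direction of hmox1a. Of 13 tested, 11 were higher and none was lower, and their counts summed to 3.09 to 4.38% of AMCA-positive and 0.321 to 1.15% of AMCA-negative libraries. The AP-1 gene junba was at 5468 ± 813 CPM in AMCA-positive libraries (SD, n = 5) and 309 ± 162 CPM in AMCA-negative ones, and jun at 2575 ± 283 CPM in AMCA-positive libraries and 521 ± 247 CPM in AMCA-negative ones. Of 12 endocrine cell markers 4 were higher, among them the prohormone gene pomca, at 2961 to 22505 CPM in AMCA-positive and 2.64 to 47.6 CPM in AMCA-negative libraries. The other 8 gave no call. Counts of the 12 summed to 1.03 to 3.60% of AMCA-positive and 0.209 to 4.58% of AMCA-negative libraries, with overlap. Of 11 mural cell and fibroblast markers 8 were higher, with mgp at 66.8 CPM in AMCA-positive libraries against 0.140 CPM in AMCA-negative ones, and of 11 endothelial markers 5 were higher. Of 5 thrombocyte markers 3 were lower, with gp1bb at 10.0 CPM in AMCA-positive libraries against 192.9 CPM in AMCA-negative ones. The summed counts of the thrombocyte markers went the other way, at 0.0704 to 0.160% of AMCA-positive and 0.0166 to 0.0700% of AMCA-negative libraries. The part of these markers in the results was not tested.

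Transferrin itself, the iron carrier encoded by tfa, gave no call and overlapped widely. Its level in AMCA-positive replicates 1 to 5 was 88.4, 102, 119, 461 and 103 CPM. AMCA-negative replicates 1 to 5 had 0.563, 160, 0.245, 318 and 430 CPM. AMCA-negative replicates 2, 4 and 5 thus stood above 4 of the 5 AMCA-positive libraries, and replicates 1 and 3 were nearly without it. On the log2 scale the difference of tfa was 0.01, with an SE of 1.26 and an adjusted p of 0.995 by edgeR.

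Both receptors of transferrin that had enough counts leaned in opposite directions. The gene tfr1a, which in zebrafish serves iron uptake by developing red cells, had 0, 0.165, 4.58, 0 and 0 CPM in AMCA-positive replicates 1 to 5. It had 21.1, 50.7, 34.8, 51.9 and 58.5 CPM in AMCA-negative replicates 1 to 5. All but 1 of the 32 AMCA-positive counts lay in replicate 3, and the groups did not overlap. The log2 fold change was -6.07, with an SE of 1.69 and an adjusted p of 0.0248 by edgeR. The call of tfr1a was lost without AMCA-positive replicate 1 (edgeR adjusted p = 0.0562) or replicate 2 (0.0667), and the log2 fold change was -9.46 without replicate 3. On neither plate alone did tfr1a pass, with a log2 fold change of -8.55 on plate 1 (edgeR adjusted p = 0.116) and -4.96 on plate 2 (edgeR adjusted p = 0.159).

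Its duplicate tfr1b had 43.1, 127, 81.7, 54.9 and 27.9 CPM in AMCA-positive replicates 1 to 5, against 1.13, 46.8, 0.245, 0 and 2.39 CPM in AMCA-negative replicates 1 to 5. AMCA-negative replicates 1, 3, 4 and 5 were low and replicate 2 lay inside the AMCA-positive range. By edgeR tfr1b did not pass (log2 fold change 4.32 ± 1.54 SE; adjusted p = 0.0670), and without AMCA-negative replicate 2 it did (6.01, edgeR adjusted p = 0.00878). Leaving out any other single library gave no call. The gene also passed by the DESeq2 Wald test (adjusted p = 6.2e-04), by limma-voom (adjusted p = 0.0253) and with neighbouring wells as a block (edgeR adjusted p = 0.0429). It did not pass with DESeq2 size factors (edgeR adjusted p = 0.0553) or with no plate term (2.72, edgeR adjusted p = 0.211). In the authors' deposited table it did not pass at 0.05 either. On plate 1 its log2 fold change was 1.74 (edgeR adjusted p = 0.624) and on plate 2 it was 5.92 (edgeR adjusted p = 0.0454). The third receptor gene, tfr2, an iron sensor of liver and red cells, had no AMCA-positive count and 3 counts in AMCA-negative replicate 2.

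The gene steap4 encodes a membrane ferrireductase that macrophages and fat cells of mammals raise in inflammation. Its level in AMCA-positive replicates 1 to 5 was 4.54, 168, 39.2, 77.8 and 39.3 CPM, and no AMCA-negative library had a count. AMCA-positive replicate 2 was again the highest, and replicate 1 was low within its group. Over all libraries steap4 was at least 480-fold higher, counted against a floor of 3 counts over the AMCA-negative group, and edgeR gave an adjusted p of 0.00439. The fitted log2 fold change was 11.45, and 10.38 without AMCA-positive replicate 2. Both are fits against no AMCA-negative count, so their size is not a measured fold. For steap4 the edgeR adjusted p was 0.126 on plate 1 alone and 0.0168 on plate 2 alone. Ceruloplasmin, the copper ferroxidase encoded by cp, had 15 AMCA-positive counts, 13 of them in replicate 5, no AMCA-negative count, and was not tested.

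Other genes of iron import, export and reduction gave 2 of 13 tested higher and 2 lower, tfr1a among them, with a median log2 fold change of 0.73. Over all genes tested the median was 0.69, with 16.2% higher and 6.56% lower. The duodenal ferrireductase gene cybrd1 was at 50.6 ± 16.9 CPM in AMCA-positive libraries (SD, n = 5) and without a count in AMCA-negative ones, at least 376-fold higher (edgeR adjusted p = 0.00123). The endocytic receptor gene lrp2a was at 7.26 ± 3.89 CPM in AMCA-positive libraries against 0.238 ± 0.256 CPM in AMCA-negative libraries. The mitochondrial iron importer gene slc25a37, or mitoferrin, needed for heme synthesis in red cells, was at 4.33 ± 4.496 CPM in AMCA-positive libraries, against 69.6 ± 43.4 CPM in AMCA-negative ones. Its log2 fold change was -4.05, with an SE of 1.00 and an adjusted p of 0.0138 by edgeR.

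The exporter and an importer were looked up after the values were seen. The ferroportin gene slc40a1, the target of hepcidin, averaged 73.3 CPM in AMCA-positive libraries, against 44.4 CPM in AMCA-negative ones, with overlap (log2 fold change 0.73; edgeR adjusted p = 0.657). The iron importer gene slc11a2 averaged 29.0 CPM in AMCA-positive libraries against 12.7 CPM in AMCA-negative libraries and did not pass either (edgeR adjusted p = 0.271).

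**Figure D2:**
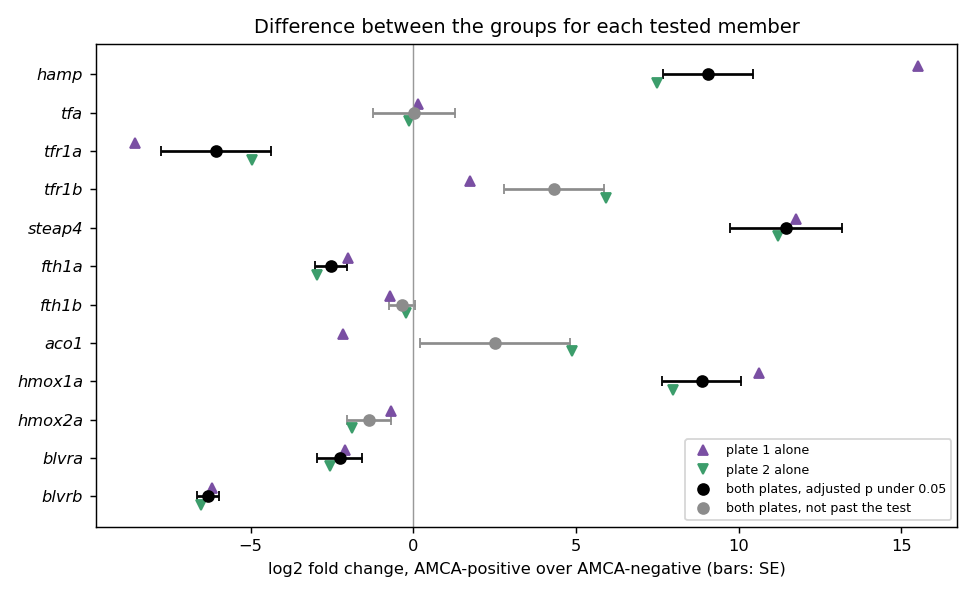
Log2 fold change of AMCA-positive over AMCA-negative libraries for the 12 genes tested, with SE as bars and the values within plate 1 (2 libraries per group) and plate 2 (3 per group) as triangles. The values with both plates run from -6.31 for blvrb to 11.45 for steap4, and some of those within a plate lie beyond. For steap4 the value is a fit against no AMCA-negative count, so its size is not a measured fold. Of the 12 genes tfa and aco1 differ in sign between plates without passing with both plates.

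Ferritin stores iron in a shell whose heavy chains oxidize it on entry. The heavy chain gene fth1a stood at 734, 4603, 713, 1263 and 599 CPM in AMCA-positive replicates 1 to 5. In AMCA-negative replicates 1 to 5 it was 6312, 13086, 8811, 5653 and 5896 CPM. In CPM all AMCA-positive libraries were below all AMCA-negative ones, and replicate 2, the highest AMCA-positive one, came nearest to them. As a part of all counts the groups overlapped. AMCA-positive replicate 2 had 27818 of 5315239 counts, a larger part than the 30039 of 5887810 in AMCA-negative replicate 4. The difference in log2 terms of fth1a was -2.54, with an SE of 0.49 and an adjusted p of 0.00441 by edgeR, and -3.20 without AMCA-positive replicate 2. On plate 1 alone the log2 fold change of fth1a was -1.999 and did not pass (edgeR adjusted p = 0.249), while on plate 2 it was -2.98 (edgeR adjusted p = 0.00683).

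Its duplicate fth1b was nearly level, at 53.7, 57.6, 36.1, 51.7 and 55.4 CPM in AMCA-positive and 70.1, 91.1, 44.8, 54.4 and 69.1 CPM in AMCA-negative replicates 1 to 5. The groups overlapped (log2 fold change -0.35, SE 0.40, adjusted p = 0.609 by edgeR).

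Beyond these, 4 ferritin-like heavy chain genes, fthl27, fthl28, fthl29 and fthl31, are in the table under clone names. They neighbour each other on a chromosome of the RefSeq assembly, and reads of such similar copies could be split among them, so the level of each is uncertain. None passed the test: fthl27 averaged 2465 ± 1475 CPM in AMCA-positive libraries, against 2260.1 ± 715 CPM in AMCA-negative ones (SD, n = 5; log2 fold change 0.09, edgeR adjusted p = 0.902). The log2 fold changes of the other 3 lay between -0.06 and 0.22.

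Together the 6 ferritin heavy chain genes took 0.344, 1.29, 0.317, 0.654 and 0.355% of all counts in AMCA-positive replicates 1 to 5. They took 0.794, 1.34, 0.909, 0.749 and 0.787% in AMCA-negative replicates 1 to 5. AMCA-positive replicate 2 thus overlapped the AMCA-negative range. Within these sums fth1a made up 27.4 ± 7.57% of ferritin counts in AMCA-positive libraries, against 70.5 ± 8.23% in AMCA-negative ones (SD, n = 5), with no overlap.

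**Figure D3:**
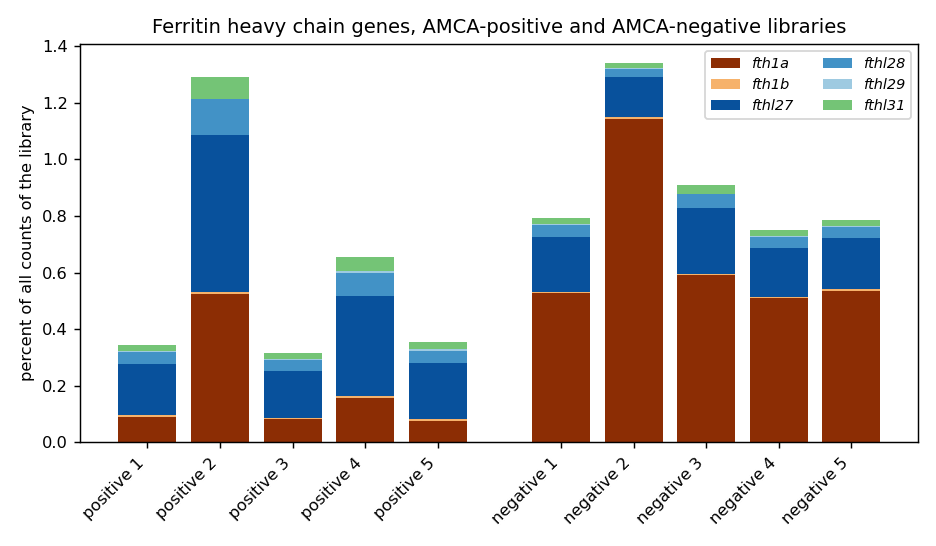
Counts of the 6 ferritin heavy chain genes as a percent of all counts in each library, stacked by gene, with AMCA-positive libraries left of AMCA-negative ones. The brown segment, fth1a, makes up 21.1 to 40.5% of the stack in AMCA-positive and 65.2 to 85.1% in AMCA-negative libraries, while the dark blue segment, fthl27, is present in all 10.

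Of 10 genes for ferritin and iron storage tested, 3 were lower and 1 was higher, with a median log2 fold change of -0.21. For all genes tested the median was 0.69, and 6.56% were lower and 16.2% higher. Lower beside fth1a were ncoa4, whose product carries ferritin to the lysosome for release of its iron, and the iron chaperone gene pcbp2. The level of ncoa4 was 62.3 ± 18.4 CPM in AMCA-positive libraries, against 1062 ± 331 CPM in AMCA-negative ones (SD, n = 5), a log2 fold change of -4.09, with an SE of 0.30 and an adjusted p of 5.75e-06 by edgeR. For pcbp2 the levels were 153 ± 31.6 CPM in AMCA-positive libraries, against 1054 ± 279 CPM in AMCA-negative ones. Its relative pcbp4 was higher, at 12.8 ± 5.81 CPM with 4 AMCA-negative counts (log2 fold change 6.03, SE 1.23, adjusted p = 0.00584 by edgeR). Between the groups red cell markers went the same way as the lower genes, and all 16 tested were lower. Among them hbaa1, an alpha globin gene, was at 258 ± 158 CPM in AMCA-positive libraries, against 124869 ± 67152 CPM in AMCA-negative ones. The part of these markers in the result was not tested.

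The cytosolic aconitase aco1 doubles as iron regulatory protein 1, which binds ferritin and transferrin receptor messages when iron is low. Its counts were few: 0.908, 4.14, 6.21, 6.56 and 6.78 CPM in AMCA-positive replicates 1 to 5, against 18.9, 0.220, 0, 0.188 and 0.399 CPM in AMCA-negative replicates 1 to 5. AMCA-negative replicate 1 was above all others, and the remaining AMCA-negative libraries were below all AMCA-positive ones. With it aco1 did not pass (log2 fold change 2.51, SE 2.31, adjusted p = 0.518 by edgeR), and without it aco1 did (4.44, edgeR adjusted p = 0.0310). The library left out here was the one set apart, and leaving out any other single library gave no call. Within plates the log2 fold change of aco1 was -2.17 on plate 1 (edgeR adjusted p = 0.633), the plate of that library, and 4.88 on plate 2 (edgeR adjusted p = 0.0330).

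Genes that assemble iron-sulfur clusters, such as the one aco1 carries, were lower or did not pass: 5 of 15 tested were lower in AMCA-positive libraries and none was higher, with a median log2 fold change of -1.08. Among all genes tested 6.56% were lower and 16.2% higher, with a median of 0.69. The cluster assembly gene isca1 was at 23.7 ± 5.97 CPM in AMCA-positive libraries, against 161 ± 52.1 CPM in AMCA-negative ones, and iba57 at 12.8 ± 5.68 CPM in AMCA-positive libraries against 230.2 ± 129.5 CPM in AMCA-negative ones (SD, n = 5). The glutaredoxin gene glrx5, whose loss in zebrafish blocks hemoglobin production, was at 119 ± 27.1 CPM in AMCA-positive libraries against 453 ± 179 CPM in AMCA-negative libraries. The other 2 were ciapin1 (log2 fold change -2.39 ± 0.44 SE) and nubp1 (-1.62 ± 0.32 SE).

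Heme oxygenase 1, the inducible enzyme that opens heme and is abundant in macrophages that digest red cells, was among the higher genes. The level of hmox1a was 1128, 668, 1195, 1776 and 705 CPM in AMCA-positive replicates 1 to 5. In AMCA-negative replicates 1 to 5 it was 0.282, 0.659, 0.245, 0.376 and 13.8 CPM. All AMCA-positive libraries lay far above all AMCA-negative ones, and AMCA-negative replicate 5 stood above its group, as it did for hamp. That library had 2.00 CPM of the pituicyte gene cyp26b1, against 1.98 to 4.17 CPM in the other AMCA-negative libraries. AMCA-positive ones had 2944 to 10596 CPM. Its leukocyte sum of 0.662% was the highest of the AMCA-negative group, but its c1qb level, 0.399 CPM, was not. Its endothelial (0.0198%) and hepatocyte (0.0428%) sums were also the highest of that group. AMCA-negative replicate 4 had a leukocyte sum of 0.597%, with hamp and hmox1a at 0.376 CPM each. The part of these markers in the hmox1a and hamp counts of replicate 5 was not tested. On the log2 scale the difference of hmox1a was 8.86, with an SE of 1.21 and an adjusted p of 5.97e-04 by edgeR, 10.62 on plate 1 and 7.98 on plate 2, past the test on each plate. Without AMCA-negative replicate 5 it was 11.31.

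The constitutive enzyme gene hmox2a leaned the other way without passing. It was at 32.8, 18.9, 26.3, 25.8 and 32.2 CPM in AMCA-positive replicates 1 to 5 and at 6.19, 70.5, 145, 104 and 63.5 CPM in AMCA-negative replicates 1 to 5. Only AMCA-negative replicate 1 was below the AMCA-positive range, and the others were above it. The log2 fold change was -1.37, with an SE of 0.67 and an adjusted p of 0.186 by edgeR. Without AMCA-negative replicate 1, the library set apart, hmox2a passed (-1.75, edgeR adjusted p = 0.0162). Leaving out any other single library gave no call for hmox2a. On plate 1 its log2 fold change was -0.69 (edgeR adjusted p = 0.840) and on plate 2 it was -1.88 (edgeR adjusted p = 0.0316).

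Both biliverdin reductases were lower. The flavin reductase gene blvrb, abundant in red cells, was at 54.6, 41.5, 37.5, 35.7 and 44.9 CPM in AMCA-positive replicates 1 to 5. It was at 3738, 2282, 5933, 2489 and 2565 CPM in AMCA-negative replicates 1 to 5. The groups were far apart, with AMCA-negative replicate 3, whose red cell sum of 41.5% was also the highest, at the top. The difference in log2 terms of blvrb was -6.31, with an SE of 0.35 and an adjusted p of 1.19e-06 by edgeR, -6.19 on plate 1 and -6.53 on plate 2.

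The second reductase gene, blvra, was at 19.2, 7.61, 13.2, 11.9 and 10.7 CPM in AMCA-positive and at 76.6, 19.3, 60.8, 28.8 and 121 CPM in AMCA-negative replicates 1 to 5. The groups met at 19.2 CPM in AMCA-positive replicate 1 and 19.3 CPM in AMCA-negative replicate 2. As a part of all counts they overlapped, with 127 of 5440581 in the first library and 88 of 5219418 in the second. On the log2 scale the difference was -2.27, with an SE of 0.69 and an adjusted p of 0.0353 by edgeR. This call was lost in 6 of 10 cases when 1 library was left out, namely AMCA-positive replicates 2, 3, 4 or 5 or AMCA-negative replicates 1 or 5 (edgeR adjusted p from 0.0800 to 0.0950). It was also lost with neighbouring wells as a block (edgeR adjusted p = 0.113), with no filter on low counts (0.0530) and on plate 1 alone (0.435), and held on plate 2 alone (0.0464).

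Each gene could be set against its counterpart in the same library, a ratio of raw counts that uses no library scaling, with 0.5 added to each count. The log2 ratio of hmox1a to hmox2a counts was 5.26 ± 0.60 in AMCA-positive libraries, against -5.81 ± 2.69 in AMCA-negative ones (SD, n = 5), so the inducible gene had more counts on one side of the gate and the constitutive gene on the other. That of tfr1b to tfr1a was 8.05 ± 2.22 in AMCA-positive libraries, against -4.88 ± 3.32 in AMCA-negative ones. AMCA-positive replicates 1, 4 and 5 had no tfr1a count, and AMCA-negative replicate 4 had no tfr1b count. The size of those ratios depends on the 0.5 added and is not a measured fold. For blvrb over blvra it was 1.82 ± 0.42 in AMCA-positive libraries, against 5.99 ± 1.00 in AMCA-negative ones, and for fth1a over fth1b 4.49 ± 1.12 in AMCA-positive libraries, against 6.88 ± 0.51 in AMCA-negative ones. In none of the 4 pairs did the groups overlap. The 4 pairs were chosen after the values had been seen, so these ratios are a description and carry no test.

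**Figure D4:**
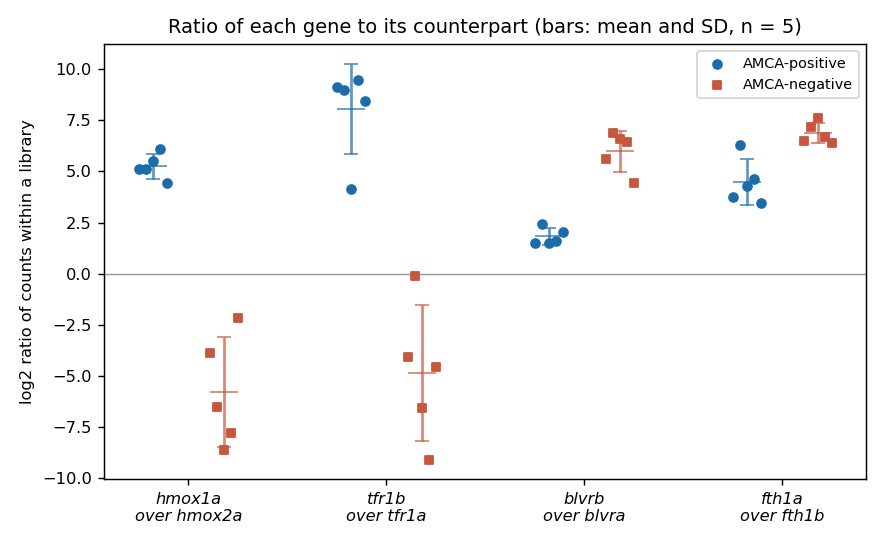
Log2 ratio of the counts of 2 genes within each library, 0.5 added to each count, with AMCA-positive libraries as blue circles left of AMCA-negative libraries as red squares and mean and SD as bars (n = 5). The ratios of hmox1a to hmox2a and of tfr1b to tfr1a lie above 0 in all AMCA-positive and below 0 in all AMCA-negative libraries, and those of blvrb to blvra and fth1a to fth1b are smaller in AMCA-positive libraries.

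Genes that move or scavenge heme gave no call. Of 7 tested none was higher or lower in AMCA-positive libraries by edgeR, where 16.2% of all genes tested were higher and 6.56% lower. Only 1 of the 7 had an unadjusted p under 0.05. That was abcg2c, a relative of the human porphyrin exporter gene ABCG2, at 15.8 ± 9.94 CPM in AMCA-positive libraries, against 1.94 ± 2.61 CPM in AMCA-negative ones (edgeR adjusted p = 0.120). The DESeq2 Wald test and limma-voom each had 1 of the 7 higher and none lower, where 25.9% and 24.1% of all genes tested were higher. The heme exporter gene flvcr1 was at 27.1 ± 21.3 CPM in AMCA-positive libraries against 12.96 ± 18.4 CPM in AMCA-negative libraries (edgeR adjusted p = 0.650).

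Of 18 genes for the factors Nrf2 and Bach1, which switch hmox1a on and hold it off, and for oxidative stress enzymes, 3 were lower and 1 was higher, with a median log2 fold change of -0.12. The median of all genes tested was 0.69, with 6.56% lower and 16.2% higher. The glutathione peroxidase gene gpx1a was at 951 ± 426 CPM in AMCA-positive libraries, against 13124 ± 3839 CPM in AMCA-negative ones (SD, n = 5; log2 fold change -3.81, edgeR adjusted p = 1.53e-05). The superoxide dismutase gene sod1 was at 157 ± 13.5 CPM in AMCA-positive libraries against 714 ± 300.4 CPM in AMCA-negative libraries, and the glutathione synthesis gene gclc at 38.6 ± 8.49 CPM in AMCA-positive libraries against 120.4 ± 59.4 CPM in AMCA-negative libraries, with overlap. The quinone reductase gene nqo1 was higher, at 17.3 ± 9.66 CPM in AMCA-positive libraries against 0.325 ± 0.612 CPM in AMCA-negative libraries (edgeR adjusted p = 0.0104). The Nrf2 gene nfe2l2a averaged 76.3 CPM in AMCA-positive libraries against 50.6 CPM in AMCA-negative libraries and did not pass (edgeR adjusted p = 0.495).

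**Figure D5:**
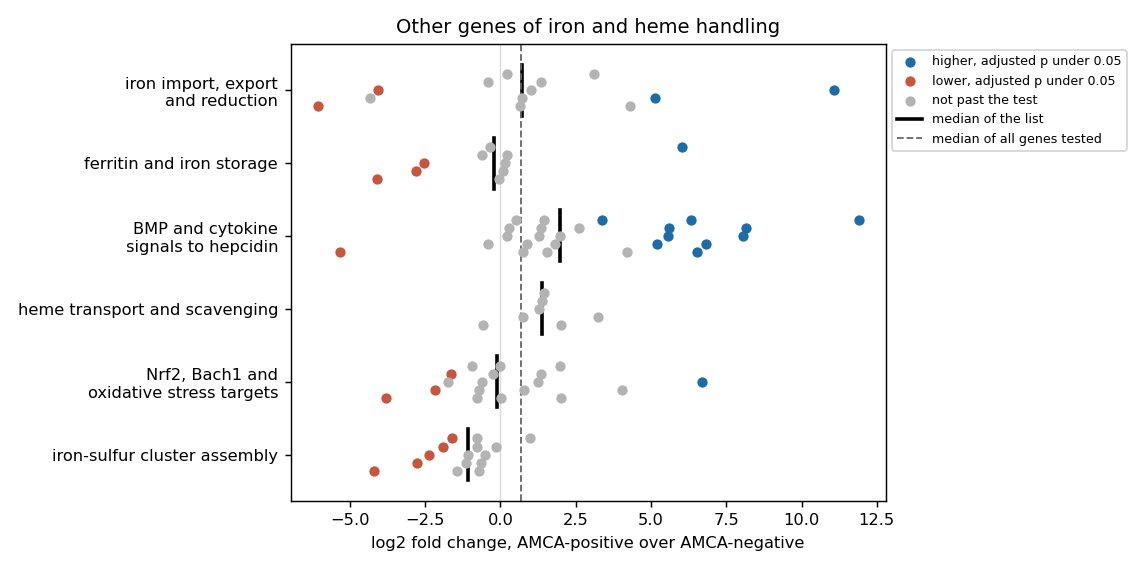
Log2 fold change of AMCA-positive over AMCA-negative libraries for each tested gene of 6 lists on iron and heme handling, with genes past the test in blue or red, the median of each list as a black line and the median of all genes tested, 0.69, as a dashed line. The BMP and cytokine list has 10 genes past the test on the higher side, and the iron-sulfur cluster list has 5 on the lower side and none on the higher.

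AMCA-positive replicate 2 was high in several of these genes. It was the highest of the 5 AMCA-positive libraries for 5 of the 12 genes tested, hamp, steap4, tfr1b, fth1a and fth1b. For fth1b the lead was small, at 57.6 CPM with the next library at 55.4 CPM. AMCA-negative replicate 5 was likewise the highest of its group for 5 of the 12. How often each library was the highest over all genes was not counted. AMCA-positive replicate 2 also held 896 CPM of cebpa, against 181 to 469 CPM in the other AMCA-positive libraries. Its leukocyte sum, at 2.49%, was the lowest of its group, and the part of such markers in these levels was not tested.

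The genes most like hamp, steap4 and blvrb over the 10 libraries were looked for among genes past the filter. The measure was the root mean square difference of log2 CPM, centred per gene. Clone names with a colon, such as that of the alpha globin gene hbaa2, were left out, so closer genes among them would be missed. Nearest to hamp were tac3b, a tachykinin gene, with a difference of 1.04, hmox1a with 1.06 and the chemokine gene cxcl18b with 1.06. Nearest to steap4 were dkk3b (0.827), hps4 (0.891) and ssuh2rs1 (0.910). Nearest to blvrb were the row named mir144, with a difference of 0.331, rpp14 (0.424) and ela2l (0.425). Of the 6 near hamp and steap4, all were higher in AMCA-positive libraries, and the 3 near blvrb were lower. The difference between the groups is part of this measure.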

How the data were processed

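RNA of 10 zebrafish libraries, 5 AMCA-positive and 5 AMCA-negative, was grouped by the dye label of each sample, and plate and well were read from the titles. Per the labels' protocols cells were sorted into plates and full-length cDNA was amplified for 15 cycles. The labels give 5 pools of 7 pituitaries but not which libraries share a pool. The authors deposited raw counts per gene. Their deposited normalized signal, log2 fold changes, score columns (test statistic and rounded means) and p-value columns were not used, except for log2 fold changes and adjusted p-values of the members. Named in the submitters' processing notes are danRer10, DESeq2, HTSeq, TopHat2 2.0.13 and cutadapt. The sources used here give no annotation, strand or counting mode.

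The fit across all genes used R 4.3.3 and edgeR 4.0.16, with TMM scaling, the filterByExpr filter and terms for plate and group. Its robust quasi-likelihood F test was two-sided. Benjamini-Hochberg adjustment covered all genes tested, with a threshold of 0.05. The SE is the one implied by the F test. CPM uses TMM-scaled library sizes, shares use all counts. Alternatives used DESeq2 1.42.0 and limma 3.58.1. The edgeR fit was tested on simulated data. A floor is 3 counts. Floors and 95% intervals reflect counting error alone. They leave out the spread between libraries and count reads copied by PCR as separate molecules, so they understate the uncertainty.

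The members and lists were chosen with earlier results of these data known. Of 273 entries in 15 lists, 217 were found by name, 16 by synonym in the RefSeq table and 40 were not found. The rule for named genes covered all members, up to 5 genes of each pathway list and 2 of each marker list with the smallest p, and hbaa1, alas2, mpeg1.1 and fabp10a. Of these, the text leaves out fbxl5, pgrmc1, slc48a1b, gpx4a, hbba2 and a2ml. The further BMP and cytokine genes past the test, bmp6, slc40a1, slc11a2 and nfe2l2a were added after the values were seen. No sequences or coordinates of the files' build were at hand, and none are shown.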

Additional observations from a re-analysis of the deposited data

Results flagged for a closer look

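Within each group of 5 libraries, 30 of 161 sets of values had 1 library set apart from the rest by Dixon's criterion. For normally distributed values chance meets it in about 1 set in 20. CPM near 0 need not follow that, since 1 count can set a library apart, as for erg and pomcb below, so the number of such sets is not read against chance. No cause was tested.

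AMCA-positive replicate 2 stood apart for hamp, at 1761 CPM with the next library at 577 CPM, and for fth1a, at 4603 CPM with the next at 1263 CPM. The same library was apart for cybrd1 (79.8 CPM, next 48.1 CPM), for the counts of the BMP and cytokine list (0.608% of its counts, next 0.311%) and for those of the Nrf2 and Bach1 list (0.382%, next 0.263%).

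AMCA-positive replicate 3 had the only tfr1a level of its group above 1 CPM, at 4.58 CPM with the next at 0.165 CPM. It so had the lowest log2 ratio of tfr1b to tfr1a, 4.14 with the next, of a library without a tfr1a count, at 8.47. It also had the lowest fth1b level (36.1 CPM, next 51.7 CPM), the highest leukocyte sum (4.47%, next 2.70%), the most alas2, the heme synthesis gene of red cells (14.2 CPM, next 4.88 CPM), and the most itga2b, a thrombocyte integrin gene (1.18 CPM, next 0.331 CPM).

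Among the other AMCA-positive libraries, replicate 4 stood apart for tfa (461 CPM, next 119 CPM) and flvcr1 (64.8 CPM, next 22.3 CPM). Replicate 5 stood apart for cp (2.05 CPM, next 0.151 CPM), for clec14a, an endothelial gene (19.4 CPM, next 8.57 CPM), and for pomcb, a pituitary prohormone gene (4.89 CPM, next 2.07 CPM).

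AMCA-negative replicate 5 held more hamp (4.79 CPM, next 0.376 CPM), hmox1a (13.8 CPM, next 0.659 CPM), abcg2a (1.60 CPM, next 0.439 CPM) and pomcb (0.200 CPM, the others without a count) than its group. AMCA-negative replicate 1 stood apart for aco1 (18.9 CPM, next 0.399 CPM) and nqo1 (1.41 CPM, next 0.220 CPM). AMCA-negative replicate 2 stood apart for tfr1b (46.8 CPM, next 2.39 CPM), tfr2 (0.659 CPM, the others without a count) and the share of ferritin heavy chain counts (1.34%, next 0.909%).

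AMCA-negative replicate 3 had the largest red cell sum (41.5%, next 27.6%), with the alpha globin genes hbaa1 at 242262 CPM (next 114685 CPM) and hbaa2, listed as si:ch211-5k11.6, at 66861 CPM (next 36934 CPM). AMCA-negative replicate 4 alone of its group had counts of erg (0.188 CPM) and col1a1a (0.376 CPM).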

How the results depend on the processing

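Of the iron and heme breakdown genes, 3 passed the test as higher and 4 as lower. Plate 1 alone, with 2 libraries per group, gave 1 higher and 1 lower. Plate 2 alone gave 5 higher, and fth1a, blvra, blvrb and hmox2a were lower there. Of all genes tested on plate 2, 14.8% were higher and 5.15% lower. Leaving out 1 library gave 3 to 4 higher and 2 to 4 lower, the lowest, 2, without AMCA-positive replicate 2, when blvra and tfr1a lost their calls. Of the genes in the pathway lists, 14 were higher and 14 lower. The DESeq2 Wald test gave 23 higher, a filter of 10 CPM in 5 libraries 7 higher, and plate 1 alone 1 higher and 0 lower. The share of all genes tested that was higher moved too, at 16.2% in the edgeR fit reported, 25.9% by the Wald test, 10.4% under that filter and 0.309% on plate 1, where 0.363% were lower. With 1 library left out these counts ran from 13 to 16 higher and from 12 to 16 lower. Marker genes were 61 higher and 20 lower, on plate 1 alone 6 and 11, and with 1 library left out 52 to 63 higher and 19 to 21 lower. A single plate holds fewer libraries and the stricter filter keeps fewer genes, and the cause of these changes was not tested.

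The labels give no replicate numbers, and those used here follow accession order, which joins neighbouring wells of a plate. Whether such wells share a pool is not stated. With neighbouring wells taken as a replicate block, 4 genes were higher and 3 lower, tfr1b gaining a call (adjusted p = 0.0429 by edgeR) and blvra losing it (0.113). No alternative reversed a call. The differences between counterpart ratios, which carry no test, ranged with 1 library left out from 10.36 to 11.97 for hmox1a over hmox2a, 11.88 to 14.13 for tfr1b over tfr1a, -4.56 to -3.95 for blvrb over blvra and -2.85 to -2.13 for fth1a over fth1b. The median log2 fold change of all genes, 0.69, was 0.85 with DESeq2 size factors, 1.64 with limma-voom, 1.70 with the block, 0.13 under the 10 CPM filter and 0.30 without a plate term. Under these 5 settings the median of the BMP and cytokine list was 2.15, 3.76, 4.82, 1.60 and 1.35, and that of the iron-sulfur list -0.96, -0.90, -0.93, -1.26 and -1.13. Depth limits cp, hfe2 and tfr2, which had 15 or fewer counts in all.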
